A study of Mus musculus with 4 samples.

Results

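The Onecut transcription factors Onecut1, Onecut2 and Onecut3 were chosen by gene name, with read counts of this comparison known, from the 26955 genes of the deposited table, which holds all 3. They were followed in 4 RNA sequencing libraries of embryonic day 13 mouse brain (C57BL/6), which the study describes as cerebral cortex. The study gives this age in places and a slightly later one in its sequencing methods. The cKO libraries (replicates 2 and 6) came from GSDMDfl/fl;Nestin-Cre embryos, here called Gsdmd cKO-Nes, in which Cre driven by the Nestin promoter deletes the floxed Gsdmd gene in neural progenitor cells and their descendants. The control libraries (replicates 4 and 5) are labelled WT, and the study calls its controls Gsdmd fl/fl, that is floxed without Cre, so whether they carry the floxed allele differs between the sources. A Cre-only control was not analysed here. No source used here ties a library to 1 embryo or to a pool, so every spread given is that between 2 libraries of a group and may be technical.

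Onecut proteins carry a single cut domain beside a homeodomain, and both contact DNA. Onecut1, also known as HNF-6, is best known from liver and pancreas development, and all 3 genes are switched on in early-born neurons of the retina, spinal cord, brainstem and diencephalon, where they act in part redundantly. CUT-class relatives in the cortex include Cux1, Cux2 and Satb1, of which Cux1 and Cux2 mark upper layer neurons.

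The cut domain is the stretch in which reads of 1 Onecut gene could be taken for those of another. The most alike 120 coding bases of Onecut1 (chr9:74863275-74863394, GRCm38, plus strand, exon 1) and Onecut3 (chr10:80496064-80496183, GRCm38, plus strand, exon 1) lie there, shown from the GENCODE transcripts with the bases that differ in capitals.
Onecut1: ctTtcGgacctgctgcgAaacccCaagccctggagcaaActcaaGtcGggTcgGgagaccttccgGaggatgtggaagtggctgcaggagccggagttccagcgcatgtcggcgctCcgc
Onecut3: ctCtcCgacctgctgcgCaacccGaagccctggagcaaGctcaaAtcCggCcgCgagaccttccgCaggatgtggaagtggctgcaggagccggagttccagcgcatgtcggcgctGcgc
Of these bases 109 were identical and 11 differed. The best window of the same length held 108 identical bases between Onecut2 and Onecut3 and 105 between Onecut1 and Onecut2. The longest identical run was 50 bases between the Onecut1 and Onecut3 transcripts, 38 between Onecut2 and Onecut3 and 26 between Onecut1 and Onecut2, and no pair shared a run of 75 bases. The controls held 426 counts of Onecut2 and 156 of Onecut3 beside 1 of Onecut1, so almost none of their reads were counted as Onecut1. These counts cannot show whether reads were exchanged between Onecut2 and Onecut3 or left out as ambiguous.

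The libraries held 16962553 to 18205945 counts. The targeted gene Gsdmd held 13 and 7 counts in cKO against 54 and 43 in control libraries, so both libraries labelled cKO were below both controls, with an adjusted p of 0.0846 from edgeR's quasi-likelihood test (0.00031 to 0.789 over the alternatives). Control replicate 5 had 7640 counts of Xist and 4 of the summed Y-linked genes, while the other libraries had 1 to 12 and 1857 to 2191, so it had a female profile and they had male ones. Marker genes of the cerebral cortex, the tissue the study describes, were present in every library. The 11 dorsal cortical markers, among them Emx1 and Tbr1, summed to 2205 and 2588 CPM (read counts scaled by TMM to a common library size) in cKO and 2118 and 1953 CPM in the controls.

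Onecut2, the most abundant member by counts, was lower in the cKO libraries. It had 39 counts in cKO replicate 2, 43 in cKO replicate 6, 235 in control replicate 4 and 191 in control replicate 5. The groups did not overlap, and the libraries of a group lay close together. The mean level was 2.27 ± 0.176 CPM in cKO against 12.4 ± 1.49 CPM in control libraries (SD, n = 2), a ratio of control to cKO of 5.48 with a 95% exact counting interval of 4.31 to 7.02. The fitted log2 fold change was -2.45 (standard error 0.21). Onecut2 lies on chromosome 18 from 64340364 to 64398488 on the plus strand, as the table gives it.

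Onecut3 was near 0 in the cKO libraries. It had 0 counts in cKO replicate 2 and 1 in cKO replicate 6, against 69 in control replicate 4 and 87 in control replicate 5. The controls were thus far apart from the cKO libraries, which held 1 count together. The mean was 4.56 ± 0.863 CPM in the controls and 0.0278 ± 0.0394 CPM in cKO (SD, n = 2). The ratio of control to cKO was 164 and its 95% exact counting interval 29.1 to 6535, a wide range because the cKO group rests on 1 count. The fitted log2 fold change was -7.04 (standard error 0.61), and DESeq2 gave -7.35 (standard error 1.51). The first standard error is narrow beside the counting interval, which rests on 1 cKO count. The fitted value depends on the prior count and on 1 library: leaving out cKO replicate 6 gave -9.31 and leaving out cKO replicate 2 gave -6.18. Onecut3 lies on chromosome 10 from 80494835 to 80517276 on the plus strand.

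Onecut1 was close to absent in both groups. It had 0 counts in both cKO libraries and in control replicate 4 and 1 count in control replicate 5. At this depth 3 counts over a group correspond to 0.0830 CPM for cKO and 0.0875 CPM for control libraries, and the 1 control count has an exact interval of 0.00074 to 0.163 CPM. No fold is given, and the gene did not pass the filter on low counts. Onecut1 lies on chromosome 9 from 74861921 to 74891781 on the plus strand.

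**Figure D1:**
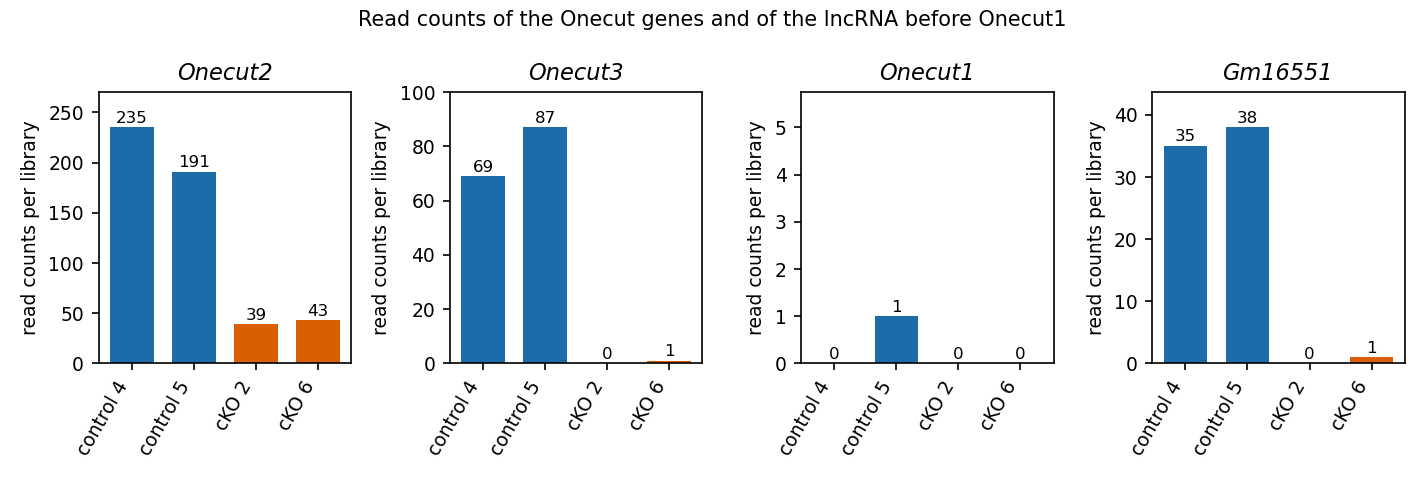
Read counts per library (linear axis, 1 bar per library, blue for control and orange for cKO) of Onecut2, Onecut3, Onecut1 and the noncoding gene Gm16551. Control bars reach 191 and 235 for Onecut2, 69 and 87 for Onecut3 and 35 and 38 for Gm16551, the cKO bars stay at 43 or below, and Onecut1 has 1 count in all.

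Of the 3 members, 2 had both cKO libraries below both controls, a pattern that 20.3% of all tested genes showed. Because the members were chosen with these counts known, their differences are given as descriptions without a test. Fewer cells that express a gene and less RNA per cell cannot be told apart in bulk tissue. By fitted log2 fold change Onecut3 stood 6th and Onecut2 27th from the lowest of 15804 tested genes. Among the male libraries alone, that is without control replicate 5, the log2 fold changes were -2.56 for Onecut2 and -6.83 for Onecut3.

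Per length of annotated exon Onecut2 and Onecut3 were close together in the controls, and Onecut3 was below Onecut2 in cKO. In the controls Onecut3 was at 0.955 ± 0.181 CPM per kb and Onecut2 at 0.764 ± 0.0917 CPM per kb (SD, n = 2), and in control replicate 4 both were near 0.83 CPM per kb, so these neighbours did not differ beyond their spread. In cKO Onecut2 was at 0.132 and 0.148 CPM per kb and Onecut3 at 0 and 0.0117 CPM per kb, and the ranges did not overlap. Onecut1 was last, at 0.0145 CPM per kb in control replicate 5 and 0 elsewhere. Onecut3 made up 22.7% of the 304 Onecut2 and Onecut3 counts in control replicate 4 (95% Clopper-Pearson interval 18.1 to 27.8%) and 31.3% of 278 in control replicate 5 (25.9 to 37.1%). In cKO it made up 0 of 39 counts in replicate 2 (up to 9.03%) and 2.27% of 44 in replicate 6 (0.0575 to 12.02%). The shares did not overlap between the groups and were the smaller ones in cKO, which is a description of the counts that chose the members. These intervals cover counting error only.

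The neighbourhood of each member was described through the nearest 3 tested genes on each side. Of these 18 genes, 1 passed edgeR's test and was lower, the noncoding gene Gm16551 (ENSMUSG00000066477), which precedes Onecut1 on the same strand. Over all tested genes 0.196% were called lower and 0.00633% higher. Gm16551 lies on chromosome 9 from 74847983 to 74860134 and ends 1786 bases before the start of Onecut1. It had 0 counts in cKO replicate 2, 1 in cKO replicate 6, 35 in control replicate 4 and 38 in control replicate 5. Its libraries thus fell into the same low and high groups as those of Onecut3, while Onecut1, next to it, had almost no reads in either group. The level was 2.13 ± 0.180 CPM in the controls and 0.0278 ± 0.0394 CPM in cKO (SD, n = 2). The ratio of control to cKO was 76.9 (95% exact counting interval 13.4 to 3080), and the log2 fold change was -5.94 ± 0.72 (SE) with an adjusted p of 0.0151 by edgeR. DESeq2 gave -6.26 with a wider standard error of 1.58, and the cKO group again rests on 1 count. The call was lost without a filter on low counts (adjusted p = 0.118) and on leaving out control replicate 5 (0.789), and it held with DESeq2 (0.0175) and limma-voom (0.0102). Its adjusted p spanned 1.2e-06 to 0.789 over the alternatives.

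The start regions of Gm16551 and Onecut1, 1 with reads in the controls and 1 almost without, are shown from RefSeq (GRCm38.p6, plus strand), from 250 bases before to 50 bases after the annotated start, with CG dinucleotides in capitals. The Gm16551 window is chr9:74848187-74848486 and the Onecut1 window is chr9:74861671-74861970.
Gm16551: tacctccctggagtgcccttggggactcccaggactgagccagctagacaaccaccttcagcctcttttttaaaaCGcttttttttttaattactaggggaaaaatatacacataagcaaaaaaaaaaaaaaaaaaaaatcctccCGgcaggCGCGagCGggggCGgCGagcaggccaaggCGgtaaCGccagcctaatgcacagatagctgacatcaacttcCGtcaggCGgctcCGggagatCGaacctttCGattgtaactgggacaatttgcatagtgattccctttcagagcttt
Onecut1: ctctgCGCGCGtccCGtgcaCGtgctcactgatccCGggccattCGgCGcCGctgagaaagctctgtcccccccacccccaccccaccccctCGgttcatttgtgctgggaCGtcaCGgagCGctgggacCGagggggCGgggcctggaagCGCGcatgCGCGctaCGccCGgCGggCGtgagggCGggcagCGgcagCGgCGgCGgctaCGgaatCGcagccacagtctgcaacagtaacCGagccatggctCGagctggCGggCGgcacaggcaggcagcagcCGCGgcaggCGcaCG
The Gm16551 window held 14 CG dinucleotides and 48.3% G and C, and the Onecut1 window 38 and 73.0%. Of 32851 RefSeq windows of this length, 36.3% held at least 14 CG dinucleotides and 4.95% at least 38. The core motifs of Onecut binding, ATTGAT and ATCGAT, were sought on both strands. Neither window held a match, against 8.40% of all windows with at least 1. RefSeq starts Gm16551 at a later base than the table does.

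Around Onecut2 the neighbours St8sia3, a sialyltransferase gene, and Fech, the ferrochelatase of haem synthesis, had log2 fold changes of -0.12 and 0.08 (adjusted p = 0.935 and 0.947 from edgeR). Around Onecut3 the 6 neighbours, from Mbd3 to Klf16, had log2 fold changes between -0.13 and 0.09. The E-protein gene Tcf3, the nearest tested gene before Onecut3, had 6206 and 7373 counts in cKO and 6636 and 6274 in the controls. Atp8b3, a flippase gene 2307 bases after Onecut3, had 16 and 12 counts in cKO and 12 and 17 in the controls. The low cKO counts of Onecut2 and Onecut3 were thus not shared by the tested genes beside them. No gene of the table overlapped a member.

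**Figure D2:**
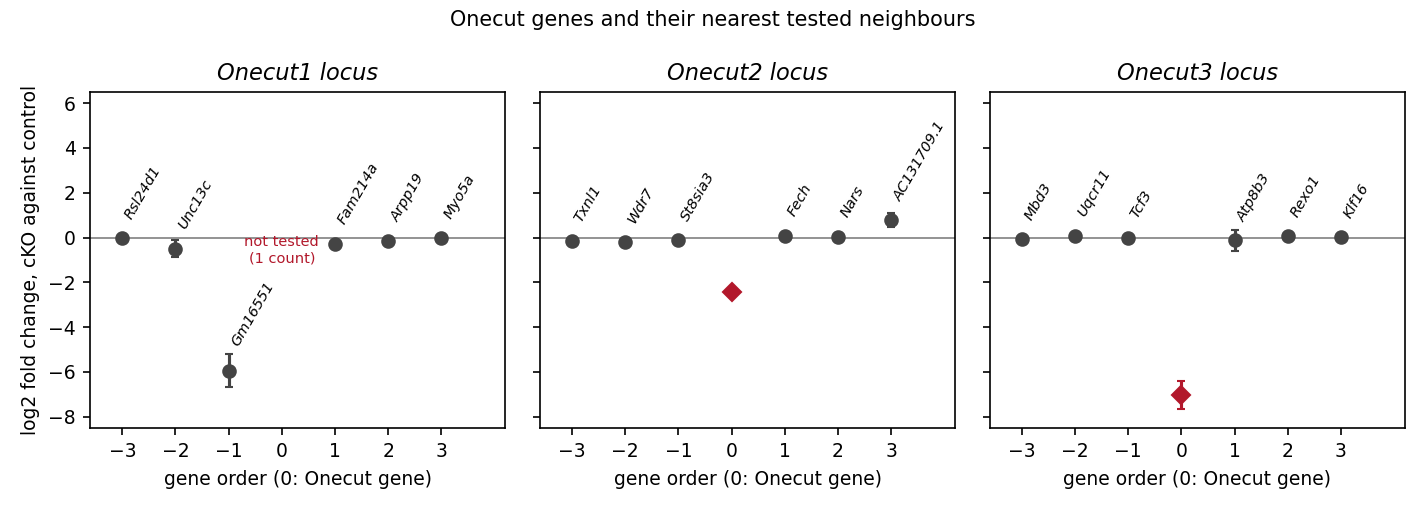
Log2 fold change of cKO against control (vertical axis, bars give the standard error) for the nearest 3 tested genes on each side of each Onecut gene, in gene order along the horizontal axis. Onecut2 at -2.45 and Onecut3 at -7.04 (red diamonds) lie below neighbours between -0.50 and 0.78, and beside Onecut1, which was not tested, Gm16551 lies at -5.94.

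The other CUT-class genes followed differed less between the groups than Onecut2 and Onecut3. None of the 3 (Cux1, Cux2 and Satb1) passed edgeR's quasi-likelihood test, with 0 at an unadjusted p under 0.05 and 0 called by DESeq2 or limma-voom. Cux1 was at 178 and 175 CPM in cKO against 179 and 175 CPM in controls, a log2 fold change of -0.01 (standard error 0.11). For Cux2, a marker of upper layer neurons, the log2 fold change was 0.05 ± 0.13 (SE). Satb1, a chromatin organizer, had -0.15 (standard error 0.11). Its cKO libraries, at 67.3 and 60.3 CPM, were both below the controls, at 73.3 and 67.9 CPM, as in 20.3% of all tested genes. The median of the 3 was -0.01, beside -0.01 for all tested genes.

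In many regions of the nervous system neurons born at successive times express Onecut genes first, then Pou2f2 and Zfhx genes, and then Nfi and Neurod genes. Of the 4 intermediate genes 0 passed the test, with 3 lower at an unadjusted p under 0.05, and DESeq2 called 1 and limma-voom 0. Over all tested genes 3.79% were lower and 3.32% higher at an unadjusted p under 0.05. The homeobox gene Zfhx3 was at 23.9 and 15.7 CPM in cKO against 41.4 and 47.6 CPM in controls, with a log2 fold change of -1.17 ± 0.21 (SE) and an adjusted p of 0.0959 by edgeR. Its adjusted p ran from 3.9e-08 to 0.789 over the alternatives. Zfhx4 had 19.8 and 17.3 CPM against 33.4 and 26.9 CPM, and the POU factor Pou2f2 had 27.5 and 21.0 CPM against 33.0 and 35.7 CPM. For all 3 of these genes both cKO libraries were below both controls, as in 20.3% of all tested genes. Their log2 fold changes were -1.17, -0.70 and -0.50, smaller in size than those of Onecut2 and Onecut3. Zfhx2 had a log2 fold change of 0.09. The number of these genes called was 2 without cKO replicate 2, 1 without cKO replicate 6, 1 without control replicate 4 and 0 without control replicate 5.

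The 6 late genes all had log2 fold changes above 0 and none passed, with 0 at an unadjusted p under 0.05 and 0 called by DESeq2 or limma-voom. Their median was 0.19. The nuclear factor genes Nfia, Nfib and Nfix had 0.11, 0.21 and 0.58, the bHLH genes Neurod2 and Neurod6 of cortical excitatory neurons 0.17 and 0.17, and Tcf4 0.24. Nfix, at 410 and 855 CPM in cKO against 352 and 492 CPM in controls, had overlapping groups, and without cKO replicate 2 it was the 1 late gene called higher.

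Genes that Onecut factors are known to act on or alongside in other mouse neurons were measured next. Of 7 listed genes 6 were in the table and 5 were tested, and 0 passed. At an unadjusted p under 0.05, 3 were lower, beside 3.79% of all tested genes. DESeq2 called 1 and limma-voom 0. Isl1, a LIM homeobox gene of motor and striatal neurons, was at 19.1 and 10.1 CPM in cKO against 36.2 and 39.6 CPM in controls, with a log2 fold change of -1.37 ± 0.26 (SE) and an adjusted p of 0.125 by edgeR (3.8e-12 to 0.789 over the alternatives). Lhx1, a LIM homeobox gene of retinal horizontal cells and early neurons, had -0.47 (standard error 0.20). Prox1, a homeobox gene also of horizontal cells, had -0.10. Pou2f2, the third gene at an unadjusted p under 0.05 beside Isl1 and Lhx1, is also counted in the intermediate list. Lmx1a, a gene of midbrain dopaminergic progenitors and the cortical hem, had 10 and 26 counts in cKO and 5 and 15 in the controls, so its groups overlapped. Phox2a, which marks noradrenergic neurons, had 2 counts in all. Leaving out cKO replicate 2, cKO replicate 6 or control replicate 4 gave 1 called gene each, and leaving out control replicate 5 gave 0.

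Onecut3 is known from tyrosine hydroxylase neurons of the mouse hypothalamus, and genes of the dopamine pathway were measured beside it. Of 6 genes 5 were tested and 0 passed by any of edgeR, DESeq2 and limma-voom, with 3 lower and 1 higher at an unadjusted p under 0.05. Th, the rate-limiting enzyme of dopamine synthesis, had 94 and 47 counts in cKO and 121 and 157 in the controls. Ddc, which makes dopamine from its precursor, had 28 and 24 counts in cKO and 63 and 76 in the controls. The vesicular transporter gene Slc18a2 had 361 and 193 counts in cKO and 501 and 461 in the controls. For these 3 genes both cKO libraries were below both controls, as in 20.3% of all tested genes. Their log2 fold changes were -1.06, -1.49 and -0.87 (standard errors 0.31, 0.28 and 0.25). Nr4a2, the orphan nuclear receptor NURR1, went the other way with 0.35 (standard error 0.15), and Gch1, of cofactor synthesis, had 0.01. The dopamine transporter gene Slc6a3 had 1 count in all. Without cKO replicate 2 or control replicate 4 the list had 3 called genes, all lower.

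**Figure D3:**
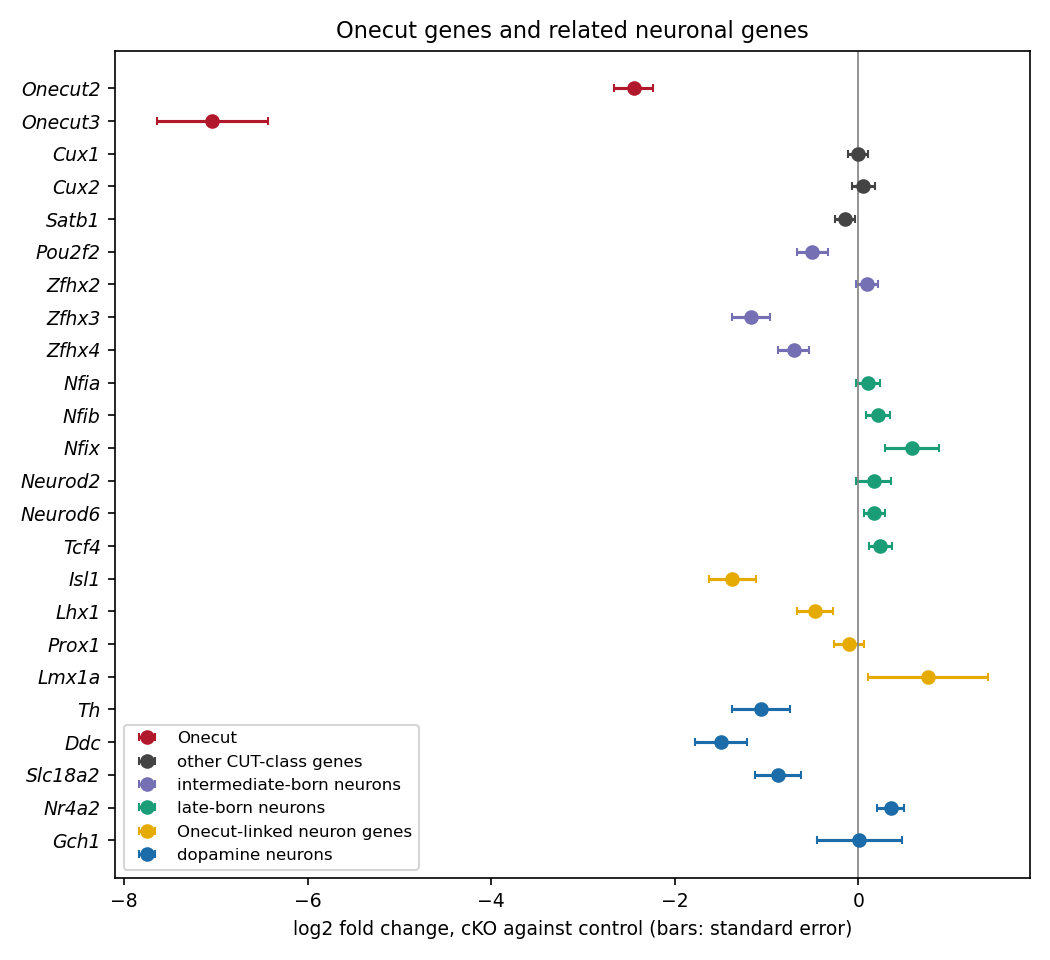
Log2 fold change of cKO against control (horizontal axis, bars give the standard error) for Onecut2, Onecut3 and the tested genes of the related lists, coloured by list. Onecut3 at -7.04 and Onecut2 at -2.45 lie to the left of all other genes drawn, of which Ddc at -1.49, Isl1 at -1.37 and Zfhx3 at -1.17 come next.

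The genes with the pattern most like that of Onecut3 were sought among the 15803 other tested genes, by the root mean square difference between log2 CPM values centred over the 4 libraries. The closest 5 were Eif3j2 (0.26), the hypothalamic homeobox genes Hmx2 (0.30) and Bsx (0.37), the predicted gene Gm3650 (0.41) and Pcna-ps2 (0.46), with Gm16551 6th (0.53). Eif3j2 and Pcna-ps2 resemble other genes of the genome closely, so their read counts are uncertain. Hmx2 was at 0 in either cKO library, against 52 and 48 counts in the controls. Bsx had 0 and 2 counts in cKO and 56 and 57 in the controls. Gm3650 had 2 and 1 counts in cKO and 82 and 85 in the controls, and Hmx3, 7th by likeness, had 1 and 0 against 41 and 44. Like Onecut3, the genes Hmx2, Bsx, Gm3650, Gm16551 and Hmx3 had at most 2 counts in any cKO library and 35 or more in each control.

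For Onecut2 the closest genes were Fgf15 (0.19), a fibroblast growth factor of the embryonic forebrain, Pdlim3 (0.19), Nup62cl (0.19), Fgf17 (0.24), which patterns the frontal telencephalon, and Prdm13 (0.24), a regulator of inhibitory neuron identity in the spinal cord. Fgf15 had 150 and 183 counts in cKO and 690 and 617 in the controls, higher in cKO replicate 6 and control replicate 4 than in the other library of its group, as Onecut2 was. Fgf17 had 18 and 31 counts in cKO and 122 and 92 in the controls. Onecut3 lay 1.36 from Onecut2 by this measure, because its fold change was larger. Counted from Onecut2, that distance placed Onecut3 14219th of the 15803 other tested genes. Counted from Onecut3, it placed Onecut2 18th. With 4 libraries in 2 groups the measure mostly follows the size of the group difference, which the prior count shrinks for genes with few counts. Nup62cl, with 1 and 1 counts in cKO and 11 and 13 in the controls, had a fitted log2 fold change of -3.50, beyond that of Onecut2.

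**Figure D4:**
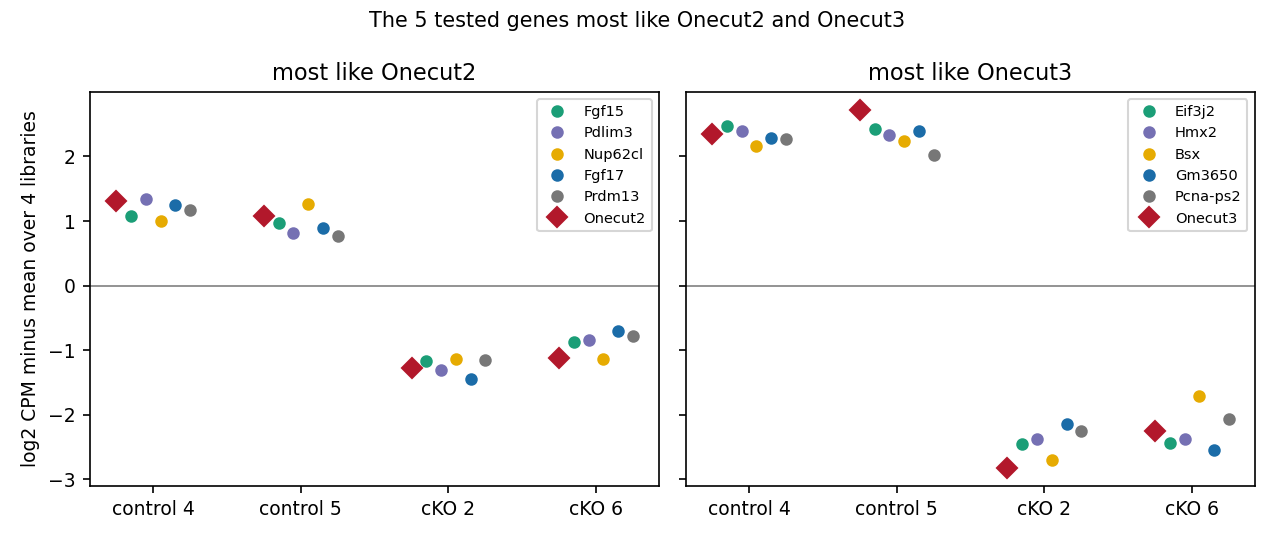
Log2 CPM minus the mean over the 4 libraries (vertical axis) in each library for Onecut2 and Onecut3 (red diamonds) and the 5 tested genes closest to each (circles). All genes are above 0 in both controls and below 0 in both cKO libraries, with a smaller gap on the Onecut2 side than on the Onecut3 side.

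The summed level of hypothalamic and of ventral telencephalic markers did not overlap between the groups and was on the low side in cKO, like Onecut2 and Onecut3, although few of the single genes passed the test. The 13 hypothalamic markers summed to 78.7 and 43.2 CPM in cKO against 161 and 215 CPM in controls. Nkx2-1, a gene shared with the medial ganglionic eminence, made up most of the control sums. It alone was at 48.2 and 17.4 CPM in cKO against 125 and 147 CPM in controls. Of the 9 tested markers, Bsx, Hmx2 and Hmx3 fell by edgeR's test while the other 6 did not pass it. In 8 of the 9 both cKO libraries were below both controls. The exception, Fezf1, had 388 and 295 counts in cKO and 238 and 297 in the controls, a log2 fold change of 0.27. Over all tested genes 0.196% were called lower and 20.3% had both cKO libraries below both controls. Hmx2, Nkx2-4, Rax and Six6 were at 0 counts in both cKO libraries, and Rax and Nkx2-4 had 3 and 2 counts in all. The 3 calls were lost without a filter (0 called) and without control replicate 5 (0), and 6, 7 and 9 genes were called without cKO replicate 2, cKO replicate 6 and control replicate 4. The part of a different share of hypothalamic tissue in the Onecut counts was not tested.

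The hypothalamic genes differed in how far apart the controls lay. Otp, a homeobox gene of neuroendocrine neurons, had 114 counts in control replicate 4 and 433 in control replicate 5. Six6 had 10 and 49 and Nr5a1, the ventromedial nucleus factor SF1, had 1 and 35 in the same order. Onecut3 had 69 and 87, and the controls of Hmx2, Hmx3 and Bsx also lay close together. These markers were picked after their values were seen, and what the spread reflects was not tested. Nkx2-1, a homeobox gene of the hypothalamus and the medial ganglionic eminence, had 876 counts in cKO replicate 2 and 312 in cKO replicate 6. The log2 fold change of Nkx2-1 was -2.05 ± 0.36 (SE), with an adjusted p of 0.0959 by edgeR (1.7e-45 to 0.789 over the alternatives).

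The 11 markers of the ventral telencephalon summed to 808 and 545 CPM in cKO against 944 and 1117 CPM in controls. All 11 had log2 fold changes below 0, with a median of -0.70. In 9 both cKO libraries were below both controls, beside 20.3% of all tested genes. At an unadjusted p under 0.05, 9 were lower, beside 3.79% of all tested genes. None passed by edgeR or limma-voom, and DESeq2 called 2, beside 68 of all 15804 tested genes called lower. Gsx1, a progenitor homeobox gene, had -2.41, Lhx8, of cholinergic neurons, -1.67, and Dlx2, of GABAergic progenitors, -0.85 (adjusted p = 0.148, 0.124 and 0.120 from edgeR). Leaving out cKO replicate 2 gave 11 called genes, cKO replicate 6 gave 2, control replicate 4 gave 9 and control replicate 5 gave 0. The part of these tissues in the Onecut counts was not tested either.

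Markers of midbrain and hindbrain, retina, and liver and pancreas, where Onecut genes are also known, had few reads in any library. All 5 measured midbrain and hindbrain markers failed the filter on low counts and summed to 0.167 to 0.220 CPM in cKO against 0.535 to 0.630 CPM in controls, with 1 count each for En1 and En2 over all libraries. Retinal markers summed to 2.34 to 2.64 CPM in cKO against 2.69 to 3.45 CPM in controls, and Pou4f2, of retinal ganglion cells, had 1 count in all. Liver and pancreas markers summed to 0.605 to 2.12 CPM in cKO against 0.654 to 2.23 CPM in controls. Thalamic markers had more reads, and their sum was not lower in cKO. They summed to 60.4 and 64.1 CPM in cKO against 56.2 and 58.0 CPM in controls. Of the 5, 0 passed by any of edgeR, DESeq2 and limma-voom, with 2 lower and 2 higher at an unadjusted p under 0.05. The sum hides a split between genes. Gbx2 and Tcf7l2 had both cKO libraries below both controls, and Lhx9, Olig3 and Barhl2 had both above. Among all tested genes 20.3% had both below and 16.9% both above. Gbx2, of the thalamic mantle, had 41 and 23 counts in cKO and 72 and 103 in the controls, and without cKO replicate 2 or control replicate 4 the list had 1 called gene.

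General neuronal, progenitor and Cajal-Retzius markers had smaller differences than Onecut2 and Onecut3. Both cKO libraries were below both controls in 4 of 8, 3 of 6 and 2 of 6 of these genes, beside 20.3% of all tested genes. At an unadjusted p under 0.05, 3.79% of all tested genes were lower and 3.32% higher. None of 8, 6 and 6 tested genes were called by any of the 3 tools, with 1, 1 and 1 at an unadjusted p under 0.05, all lower (Elavl4, Sox2 and Lhx5), and medians of -0.14, -0.17 and -0.11. None of 7 microglial, 5 endothelial and 3 mesenchymal genes passed by these tools, with 1, 0 and 0 at an unadjusted p under 0.05, and 1 mesenchymal gene (Col1a2) was called lower without cKO replicate 2. The 7 erythroid genes, which measure blood, had a median of -0.76 and summed to 480 and 540 CPM in cKO against 641 and 970 CPM in controls, with 6 lower at an unadjusted p under 0.05, 0 called by edgeR, DESeq2 or limma-voom, and 2, 3 and 4 called without cKO replicate 2, cKO replicate 6 and control replicate 4. All 11 dorsal cortical genes had log2 fold changes above 0, with a median of 0.19, and 0 passed by any of edgeR, DESeq2 and limma-voom, with 4 at an unadjusted p under 0.05 and 4 called higher without cKO replicate 2.

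**Figure D5:**
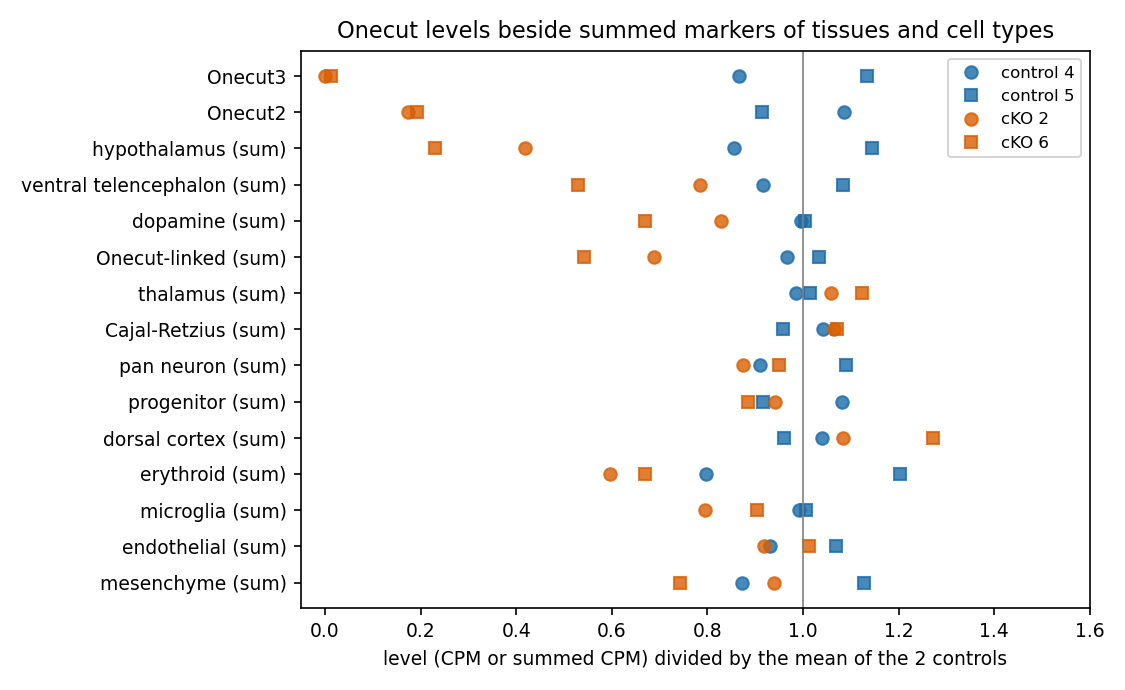
Level of Onecut3 and Onecut2 in CPM and of 13 gene lists as summed CPM, divided by the mean of the 2 controls (horizontal axis), with blue for control and orange for cKO libraries. The cKO points of Onecut3 and Onecut2 lie further left than those of any list. The lowest list is the hypothalamic sum (78.7 and 43.2 CPM in cKO against 161 and 215 CPM in controls), most of which is Nkx2-1 in the controls. The ventral telencephalic, Onecut-linked, dopamine, erythroid and microglial sums also lie below both controls in both cKO libraries.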

How the data were processed

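Whole-number read counts per gene were deposited by the authors for 4 libraries. According to the submitters' processing notes, HTSeq 0.6.0, TopHat2 2.0.12 and Bowtie2 2.2.3 were used with mm9. Even so, 92.9% of 26897 matched genes were placed exactly as in the GENCODE annotation of GRCm38. Strand settings and the handling of multiply mapped reads are not stated in these sources. The table also holds the authors' normalized mean (a signal), p-values, and a fold change both as ratio and on the log2 scale, from the authors' own comparison, none of which was used here.

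Testing used edgeR 4.0.16 under R 4.3.3 (filterByExpr, which kept 15804 genes, TMM, glmQLFit and glmQLFTest, prior count 0.125, Benjamini-Hochberg adjustment over all tested genes, threshold 0.05). Standard errors were derived from the fitted log2 change and its quasi-likelihood F statistic (change over root F). For Onecut3 and Gm16551, with 1 count in cKO, they were smaller than those of DESeq2. The typical coefficient of variation was 13.0%. Alternatives used DESeq2 1.42.0, its size factors in edgeR, limma-voom (limma 3.58.1), no filter, a filter of 1 CPM in 2 libraries, and 3 of the 4 libraries. In the last, a lone library is assumed to vary like the other group. Steps were tested on simulated data.

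Levels are TMM-scaled CPM, per kb of the union of GENCODE exons where genes are compared. Likeness used log2 CPM with a prior count of 2. Named genes are the members, the related lists, the nearest 3 tested neighbours on each side, the 5 most alike genes, Gsdmd, and called or leading markers. Single libraries' values of some further markers were chosen after their values were seen. The members, lists and tests were chosen with earlier results of these data known. Some listed genes were not analysed here or are not reported here, and the counts and sums of their lists leave them out.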

Additional observations from a re-analysis of the deposited data

How the results depend on the processing

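The log2 fold change of Onecut2 ran from -2.56 to -2.32 when each library was left out in turn and was -2.43 to -2.45 under the other settings. That of Onecut3 was -6.57 with limma-voom and ran from -9.31 to -6.18 over the libraries left out. Both stayed below 0 in all 9 alternatives. Onecut1 passed no filter, and without a filter it had -2.35 (standard error 2.72), which rests on 1 count. Over all genes 32 were called (31 lower, 1 higher), 81 with DESeq2 (68 lower, 13 higher), 8 without a filter and 0 to 292 with a library left out. The lowest count came on leaving out control replicate 5, with 694 genes at an unadjusted p under 0.05. Over the lists 3 genes were called, 7 with DESeq2, 0 without a filter and 0 to 32 with a library left out. Among the neighbours 1 was called, 0 without a filter and 0 to 1 with a library left out. Each fit without a library has fewer samples, and the cause of these differences was not tested. Few counts limit Onecut3, Onecut1 and Gm16551 in cKO. No paired analysis was possible because the groups share no replicate number.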
